A study of Mus musculus with 4 samples.

Results

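Vsig4+ macrophages of the mouse hindpaw were examined in droplet single-cell RNA-seq of sorted CD45+ leukocytes, in which each transcript is tagged with the barcode of its droplet and with a unique molecular identifier (UMI) that lets every molecule be counted once. They were chosen by their own counts: among barcodes in which 200 or more genes were detected and mitochondrial transcripts made up no more than 10%, those with at least 10 UMIs of C1qa, C1qb and C1qc together, at least 2 UMIs of Vsig4 and no Cd3e UMI were taken. The rule found 1462 barcodes. They made up 22.7% of the 6455 barcodes with 10 or more C1q UMIs (C1q-high barcodes) and 5.26% of the 27800 barcodes that passed the quality thresholds (kept barcodes), of 30793 deposited. The remaining 4993 C1q-high barcodes served as the comparison within each library.

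Male DB mice (Lepr db/db, C57BLKS/J background, a stock that also carries the Dock7m allele) have a defective leptin receptor, with obesity and high blood glucose, and were compared with WT littermates (Lepr WT/WT) at 12 and 21 weeks of age, without injury to the paw. The ages come from the study's methods, since the labels give only young and aged, and the Dock7m state of each group is not given in the sources used here. Each of the 4 conditions was 1 library, made from the collagenase-digested hindpaws, cut at the ankle, of 2 to 3 pooled mice. Differences between conditions therefore have no replicate check, no test was made, and all intervals below are at 95% and cover counting error only. The labels give Cell Ranger 5.0.0 for all 4 libraries, whereas the headers of the 21-week matrices give 6.0.0, so software version and age cannot be told apart.

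Vsig4 encodes a complement receptor of the immunoglobulin superfamily that binds C3b and iC3b and is largely restricted to resident macrophages, such as those of the liver and of the joint. In joints, a layer of Cx3cr1+ Vsig4+ Trem2+ macrophages joined by tight junction proteins lines the synovial cavity, while Lyve1+ macrophages that express Folr2, Cd163 and Timd4 lie in the tissue beneath it and along vessels. C1q is the recognition component of the classical complement pathway and is made largely by resident macrophages. A hindpaw holds skin, joints, tendon and marrow, so macrophages of several sites enter the same library.

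Values are given for WT and DB at 12 weeks and then for WT and DB at 21 weeks, an order that is kept throughout. There were 318, 264, 414 and 466 Vsig4+ macrophages with a median of 11730.5, 11190, 12302 and 10181.5 UMIs each. Other C1q-high barcodes had a median of 8682, 10654, 10589 and 9048.5 UMIs. The cells were thus deeper than their neighbours in every library, least so in 12-week-DB, and levels were compared as CPM, in which the UMIs of a gene are scaled to a common total over the summed barcodes. Their median Vsig4 count was 14, 12, 18.5 and 12 UMIs, well away from the threshold of 2. Barcodes just inside the threshold, with exactly 2 Vsig4 UMIs, numbered 41, 21, 21 and 45, and those just outside, with 1 UMI among the other C1q-high barcodes, numbered 98, 79, 75 and 86. The Cd3e condition removed 73 barcodes that met the other conditions. No barcode sequence was a Vsig4+ macrophage in more than 1 library, although the libraries of 21-week-WT and 21-week-DB shared 154 deposited barcodes. A doublet caller, Scrublet, gave its highest scores to 3.14%, 3.03%, 7.25% and 5.79% of the cells against 5.80%, 6.12%, 9.02% and 11.4% of the other C1q-high barcodes.

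Vsig4 itself (ENSMUSG00000044206, GRCm38 chrX:96247203-96293438, minus strand), a gene of the rule, stood at 2060, 1648, 1903 and 1752 CPM. As background for shares of cells with a UMI, barcodes with 2 or more Cd3e UMIs and no high C1q (T-cell-like barcodes, 634, 1301, 1224 and 1624 of them, with a median of 6536.5, 5613, 7325.5 and 5810 UMIs) held a Vsig4 UMI in 4.42%, 1.92%, 4.08% and 2.09% of cases.

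The other markers proposed for these cells were all higher in them than in other C1q-high barcodes, to different degrees. Sparc (chr11:55394500-55423183, minus strand), a secreted collagen-binding matricellular protein, stood at 476.6, 269.9, 605.8 and 211.5 CPM against 65.3, 24.9, 100.1 and 25.9 CPM. Its log2 ratio averaged 2.98 ± 0.35 (SD, n = 4 libraries). Slc7a2 (chr8:40862396-40922308, plus strand), a transporter of arginine and other cationic amino acids, stood at 514.9, 804.7, 2273 and 658.5 CPM against 240.3, 214.9, 603.9 and 161.1 CPM, with a mean log2 ratio of 1.74. Its level in 21-week-WT was far above that of the other libraries in both populations. Folr2 (chr7:101839988-101857194, minus strand), the folate receptor of resident macrophages, stood at 776, 624.9, 591.5 and 317.2 CPM against 339.1, 190.8, 195.1 and 124.3 CPM, and its mean log2 ratio was 1.46. Trem2 (chr17:48346401-48354147, plus strand), a lipid-binding receptor that signals through Tyrobp, showed the smallest difference. It stood at 683.7, 520, 662.8 and 614.8 CPM against 319, 360.1, 383.6 and 338.9 CPM, a log2 ratio of 1.10, 0.53, 0.79 and 0.86, and only 12-week-WT passed 2-fold.

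The markers were not spread evenly over the cells. Trem2 was detected in 93.1%, 85.2%, 96.4% and 93.1% of Vsig4+ macrophages and in 74.5%, 84.8%, 82.8% and 77.5% of other C1q-high barcodes. Detection in 12-week-DB was thus nearly the same in both, and was 71.0% against 65.6% after thinning of each barcode to 4000 UMIs. Sparc was detected in 44.7%, 23.1%, 61.4% and 41.2% of the cells, against 14.7%, 6.19%, 15.2% and 6.19% of other C1q-high barcodes and at most 2.21% of T-cell-like barcodes. After thinning of each barcode to 4000 UMIs the Sparc shares were 35.3%, 19.2%, 51.7% and 32.9% against 8.995%, 3.48%, 10.3% and 4.23%. Cells with at least 1 UMI of all 4 markers made up 29.9%, 17.4%, 54.6% and 33.7% of the Vsig4+ macrophages. A Sparc UMI was therefore found in a minority of them in every library but 21-week-WT. Cells without one were shallower in every library, so this does not give the share that express Sparc.

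The label of lining macrophage was borne out only in part, as the levels and detection of its markers below show. Of 10 lining markers, 5 reached a mean of 20 CPM and could be compared (Cx3cr1, Trem2, F11r, Axl and Mfge8), and 0 were at least 2-fold higher in all 4 libraries. Over all genes compared 0.793% met this call, so a count of 0 among 5 says nothing about the label, and the list's median log2 ratio was 0.81 beside 0.03 over all genes. Cx3cr1, the fractalkine receptor, stood at 801.2, 359.4, 457.2 and 301.8 CPM against 275.8, 167.3, 222.7 and 228.8 CPM, which was 2-fold or more in every library except 21-week-DB. F11r, which encodes the junctional adhesion molecule JAM-A, was at 239.6, 124.7, 236.7 and 92.2 CPM against 118.9, 85.2, 120.7 and 56.2 CPM. Mfge8, a bridging protein for dying cells, stood at 85.3, 70.1, 69.8 and 92.8 CPM against 64.4, 68.2, 100.3 and 314.7 CPM, so it was higher in 12-week-WT and lower at 21 weeks. The 4 junction and polarity genes of the list were under the 20 CPM limit and were detected in few cells. Fat4, a protocadherin, was found in 4.09%, 2.27%, 4.11% and 1.50% of the cells, against 0.372%, 0.333%, 0.766% and 0.412% of other C1q-high barcodes and at most 0.245% of T-cell-like barcodes, on 17, 7, 20 and 8 UMIs. Vangl2, a planar polarity protein, was found in 9.43%, 5.30%, 11.35% and 6.65% of the cells against 4.31%, 4.72%, 3.74% and 2.47% of other C1q-high barcodes, close to the T-cell-like share of 5.07% in 12-week-DB. Fat4 was thus higher in the cells in all 4 libraries, with an interval of the ratio that includes 1 in 21-week-DB, and Vangl2 in all but 12-week-DB beyond counting error. Tjp1 was detected in 0.943%, 1.14%, 2.42% and 1.29% of the cells, under its share of T-cell-like barcodes, and Cldn5 in 0%, 0%, 0% and 0.215%. Of the 10 markers of interstitial and perivascular macrophages, all could be compared and 4 were at least 2-fold higher in all 4 libraries, Lyve1, Cbr2, Folr2 and Timd4, with a list median of 0.86. Lyve1 (chr7:110850607-110863239, minus strand), a hyaluronan receptor, was detected in 93.7%, 98.1%, 97.8% and 92.5% of Vsig4+ macrophages against 62.9%, 54.3%, 49.1% and 55.8% of other C1q-high barcodes and 7.10%, 4.53%, 6.13% and 2.09% of T-cell-like barcodes. Nearly all of these cells were thus Lyve1+, and Lyve1 is not a gene of the lining list. Timd4, a receptor for phosphatidylserine on dying cells, stood at 96.7, 65.04, 85.4 and 67.1 CPM against 35.2, 14.2, 20.1 and 15.6 CPM. The scavenger receptors Cd163 and Mrc1 differed little, with log2 ratios between -0.33 and 0.64. Retnla, also of this list, turned with age, with log2 ratios of -1.77 and -0.28 at 12 weeks and 0.57 and 0.44 at 21 weeks. The cells are therefore called Vsig4+ macrophages here, by their rule.

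Markers of other cell types were mostly low. The 5 T cell genes summed to 10.3, 11.6, 9.74 and 16.9 CPM in the cells, of which Cd2 gave 4.11, 2.83, 4.04 and 3.89 CPM. The rule asked for no Cd3e UMI in the Vsig4+ macrophages only, while 63, 105, 92 and 75 of the other C1q-high barcodes held one, so the sums of 63.1, 89.0, 97.5 and 101.6 CPM in the others follow in part from the choice. In those without a Cd3e UMI they were 30.98, 41.6, 28.8 and 34.5 CPM. Of 8 fibroblast genes only Pdpn, which macrophages also express, reached a mean of 20 CPM over the 8 sums of the libraries' Vsig4+ and other C1q-high barcodes, Col1a1 stood at 20.05 CPM in the 12-week-WT cells, Pdgfra was at 0 in all Vsig4+ macrophages, and the list summed to 158.6, 62.5, 149.2 and 72.2 CPM against 108.6, 56.8, 87.02 and 52.7 CPM in the other C1q-high barcodes, higher in the cells in every library. The osteoclast list summed to 197.7, 345.6, 121.1 and 613.6 CPM, of which Ctsk gave 167.1, 286.9, 72.8 and 424.6 CPM, with Calcr and Oscar at 0, against 155.8, 262.1, 148.5 and 602.3 CPM in the others. The 7 dendritic cell genes summed to 26.5, 24.2, 30.7 and 26.7 CPM against 159.7, 76.9, 119.7 and 202 CPM. Endothelial, keratinocyte, mast cell, neutrophil, B cell and NK cell or ILC2 lists summed to at most 168.3 CPM in any library, the neutrophil list in 21-week-DB, where S100a8 gave 159.6 CPM. The endothelial and mast cell lists were higher in the cells than in the others in every library but 12-week-WT, at 130.8 against 78.55 CPM and 93.9 against 31.9 CPM in 21-week-WT. Their part in the results below was not tested.

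Across all genes, 6176 reached a mean of 20 CPM over the 8 sums of Vsig4+ and other C1q-high barcodes. Of these, 49 genes (0.793%) were at least 2-fold higher in the cells in all 4 libraries and 69 (1.12%) at least 2-fold lower, with a median log2 ratio over all genes of 0.03. The cells were chosen by their counts, so these are descriptions and no test was made.

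Among the genes with the largest steady excess, Pcolce2, an enhancer of procollagen processing, led with 62.0, 25.4, 212.8 and 133.1 CPM against 4.78, 3.01, 28.6 and 8.09 CPM. S100b, a calcium-binding protein known from glia, stood at 240.8, 129.5, 280 and 243.3 CPM against 50.7, 14.0, 65.2 and 30.5 CPM. Pmepa1, a membrane protein that dampens TGF-β signalling, was the most abundant of the leading genes at 1218, 691.6, 1249 and 624.3 CPM against 271.4, 168.7, 350.1 and 174.5 CPM. Pcolce2 in 12-week-DB lay below its level in the other barcodes of 21-week-WT. Olfml3, a secreted olfactomedin-domain protein, was 2.45, 2.31, 2.38 and 2.03 log2 units higher, and Chst1, a sulfotransferase of keratan sulfate, 2.55, 2.68, 2.22 and 2.19. Amotl1, an angiomotin family scaffold at cell junctions, Sox4, a transcription factor, Nbl1, a BMP antagonist, and Mxra8, an adhesion protein, followed with mean log2 ratios of 2.37, 2.42, 1.91 and 2.11. Arsb, the lysosomal arylsulfatase B, and Ch25h, which makes 25-hydroxycholesterol, had mean log2 ratios of 1.75 and 1.89. Tpbgl, Syngr1 and Fermt2 completed the leading 15, Fermt2 at levels below those of T-cell-like barcodes in both 12-week libraries.

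**Figure D1:**
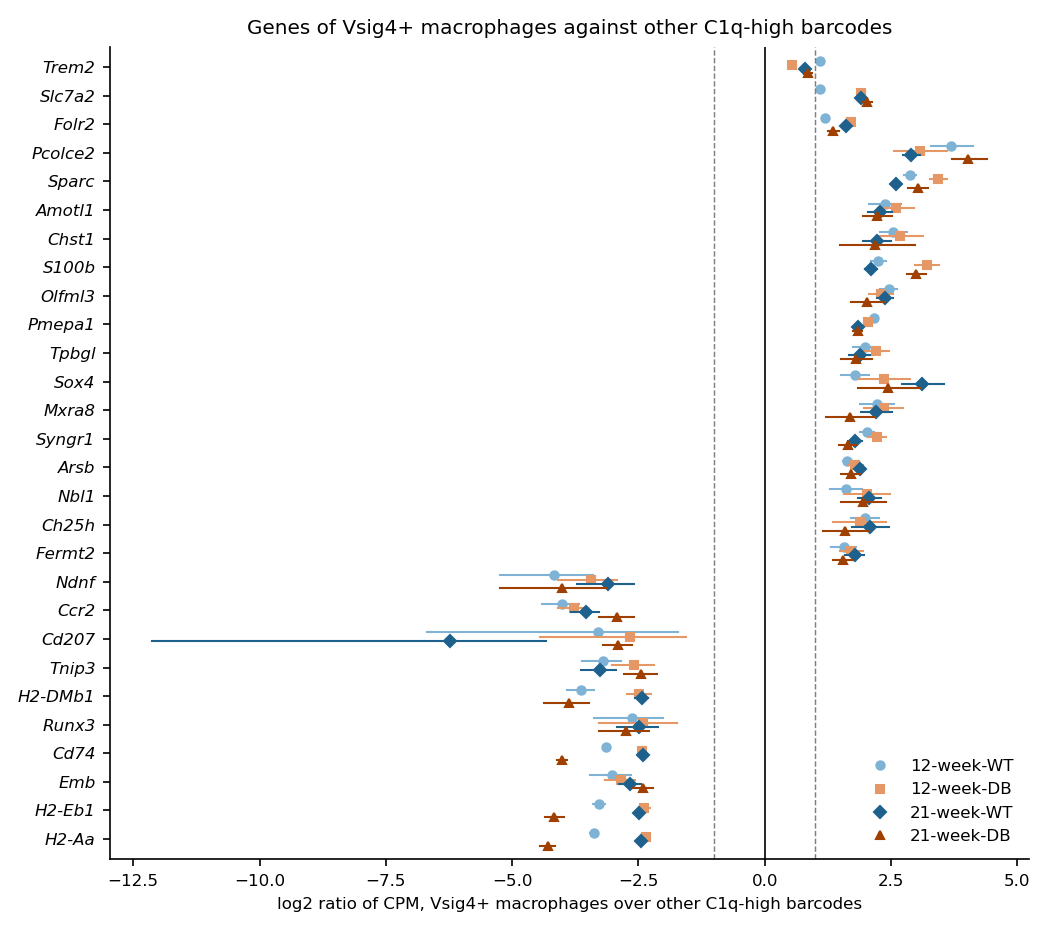
Log2 ratio of CPM in Vsig4+ macrophages over other C1q-high barcodes of the same library for 3 proposed markers, the 15 genes with the largest steady excess (Sparc among them) and the 10 with the largest steady deficit, 1 point per library with its exact 95% interval for counting error. Dashed lines mark 2-fold, and all genes but Trem2 lie beyond them in all 4 libraries.

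The list of 14 lysosome genes had a median log2 ratio of 0.44, beside 0.03 over all genes. Ctsd, the aspartic protease cathepsin D, was at least 2-fold higher in every library and stood at 2455, 1249, 1549 and 896 CPM against 653.9, 465.1, 501.1 and 414 CPM. In the matrix and junction list Sparc and Timp2, an inhibitor of metalloproteinases, were higher and the macrophage elastase Mmp12 lower, of 7 genes compared. In the lipid list the lipoprotein lipase Lpl and the fatty acid-binding protein Fabp5 were lower, of 12 genes, and none was higher. Among growth factors 1 of 7 was higher, Bmp2, and in the arginine list Slc7a2 and Ass1, of 5, Ass1 at levels below those of T-cell-like barcodes. Timd4 was the 1 of 14 efferocytosis and scavenger genes and Folr2 the 1 of 7 iron and folate genes that were higher. In the list of alternative activation genes, 1 of 8 was lower, the lectin Mgl2. Lists of general macrophage, transcription factor, early response, metallothionein, interferon and cell cycle genes held 0 that met the call in either direction. They had 8, 13, 12, 7, 3 and 1 genes compared, with median log2 ratios of 0.40, 0.23, -0.76, -0.18, 0.29 and -1.26. Over all genes only 0.793% were called higher and 1.12% lower, so a count of 0 is not read as no difference.

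Of 13 inflammatory cytokine and chemokine genes, 5 were at least 2-fold lower in all 4 libraries: Il1b, Il10, Cxcl1, Cxcl2 and Ptgs2. Ptgs2 and Il10 were near the floor in the 12-week-DB cells, at no more than 0.83 and 4.57 CPM in those with or without a Sparc UMI. Cxcl2, a neutrophil chemoattractant, stood at 161.7, 118.1, 372.5 and 1743 CPM against 689, 527.5, 1881 and 4078 CPM, and only in 21-week-DB was it far above the T-cell-like level of 157.9, 128.5, 303.5 and 394.1 CPM. Of 4 monocyte genes compared, 1 was lower, Ccr2, the chemokine receptor of recruited monocytes, which stood at 16.2, 31.1, 20.2 and 15.2 CPM against 265.2, 429.2, 236.7 and 115.4 CPM. Ndnf, a secreted protein with fibronectin type III domains, and Cd207, the lectin langerin, were also among the largest deficits, with mean log2 ratios of -3.69 and -3.78. Cd207 rested on 2, 5, 1 and 113 UMIs in the cells. Tnip3, Runx3 and Emb had mean log2 ratios of -2.88, -2.57 and -2.74. Runx3 and Emb were far higher in T-cell-like barcodes than in either population, and against other C1q-high barcodes without Cd3e the 3 means were -2.94, -2.35 and -2.67.

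Genes of MHC class II antigen presentation formed the remaining deficit, with 6 of 7 at least 2-fold lower. H2-Ab1 stood at 274.5, 330.2, 682.4 and 84.8 CPM in Vsig4+ macrophages against 2272, 1641, 3484 and 1044 CPM in other C1q-high barcodes. T-cell-like barcodes, which should lack it, held 653, 585.9, 943.4 and 156.8 CPM. Cd74, the invariant chain, stood at 717.7, 904, 1846 and 186.4 CPM against 1663, 1490, 2553 and 425.3 CPM in T-cell-like barcodes. The CPM in Vsig4+ macrophages was thus below that of T-cell-like barcodes in all 4 libraries for both genes. T-cell-like barcodes were shallower, and per barcode H2-Ab1 gave 3.36, 3.98, 8.97 and 0.936 UMIs in the cells against 4.97, 4.02, 8.17 and 1.03 in them, so the counts were near this background in every library and slightly above it in 21-week-WT. Within 21-week-WT, the 87 cells with 4 to 9 Vsig4 UMIs stood above the T-cell-like level, at 1294 CPM for H2-Ab1 and 3668 CPM for Cd74. The summed level is therefore not read as expression, and changes of these genes between conditions are not read as changes of the cells.

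**Figure D2:**
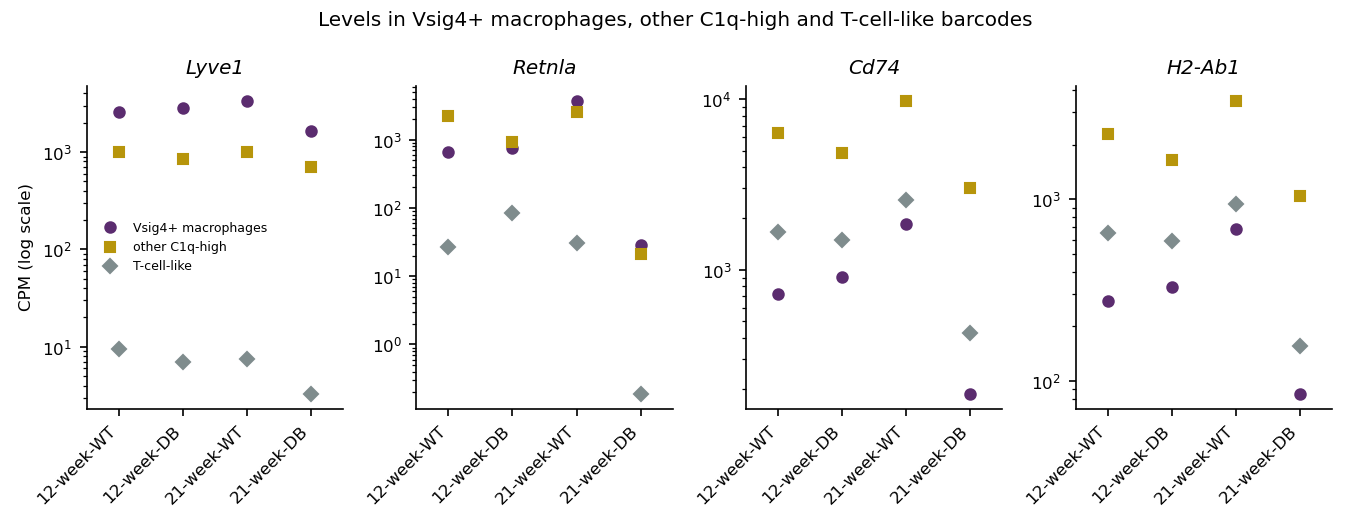
CPM on a log scale of 4 genes in Vsig4+ macrophages (circles), other C1q-high barcodes (squares) and T-cell-like barcodes (diamonds) of each library. Lyve1 and Retnla lie well above the T-cell-like level in Vsig4+ macrophages of every library, whereas Cd74 and H2-Ab1 lie below it.

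The cells were not uniform, and the Vsig4 count itself ordered them. This split and the next were chosen after the values were seen, and deeper barcodes have more Vsig4 UMIs. Cells with 10 or more Vsig4 UMIs (189, 147, 288 and 257) had a median of 13727, 13021, 13008.5 and 11433 UMIs, and those with 2 to 9 (129, 117, 126 and 209) had 9463, 9137, 9905 and 8183. Of 6172 genes compared, 32 (0.518%) were at least 2-fold higher in the first set in all 4 libraries and 13 (0.211%) at least 2-fold lower. Cx3cr1 stood at 1131, 507.8, 554.7 and 436.1 CPM in the first set and was detected in 89.9%, 58.5%, 83.3% and 67.7% of its cells against 17.8%, 16.2%, 30.95% and 17.7% of the second. T-cell-like barcodes held a Cx3cr1 UMI in 13.1%, 15.5%, 5.88% and 5.11% of cases, so the 12-week shares of the second set were near this background. After thinning to 4000 UMIs the Cx3cr1 shares were 84.7%, 52.8%, 68.75% and 52.5% against 14.2%, 10.9%, 19.7% and 14.1%, and those of T-cell-like barcodes 9.64%, 10.7%, 1.88% and 3.83%. Sparc was detected in 64.02%, 36.1%, 75.7% and 61.5% against 16.3%, 6.84%, 28.6% and 16.3%. F11r was also 2-fold or more higher, with log2 ratios of 1.74, 1.44, 1.09 and 1.39. Lyve1 was detected in 94.7%, 99.3%, 99.3% and 93.8% against 92.2%, 96.6%, 94.4% and 90.9%, and its level was higher in the Vsig4-rich cells by log2 ratios of 0.06, 0.34, 0.35 and 0.41, short of 2-fold. Of the 5 lining genes compared, Cx3cr1 and F11r met the 2-fold call, while Trem2, Axl and Mfge8 fell short of it, and Trem2 was detected in 83.7%, 74.4%, 93.7% and 86.6% of the Vsig4-poor cells. Cx3cr1 and Sparc therefore lay mostly in the Vsig4-rich cells, while Lyve1 was found in over 90% of both sets.

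Other genes higher in the Vsig4-rich cells were Chst1, S100b, the integrin subunit Itgb5, Olfml3, the secreted phosphoprotein Spp1, the mucin-type protein Pdpn and Ctsd. Those higher in the Vsig4-poor cells were the lectins Clec10a and Cd209d, the chemokines Ccl2, Ccl12 and Cxcl1, the endothelin receptor Ednrb and the cytokine receptor Lifr, with Ildr2, Enpep, Ighm, Gfra2, Gprc5c and Ms4a4a. Of the 49 genes higher in Vsig4+ macrophages, 17 were 2-fold higher in the Vsig4-rich cells too. Those 49 were themselves chosen as higher with Vsig4, so nothing is read from this count.

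**Figure D3:**
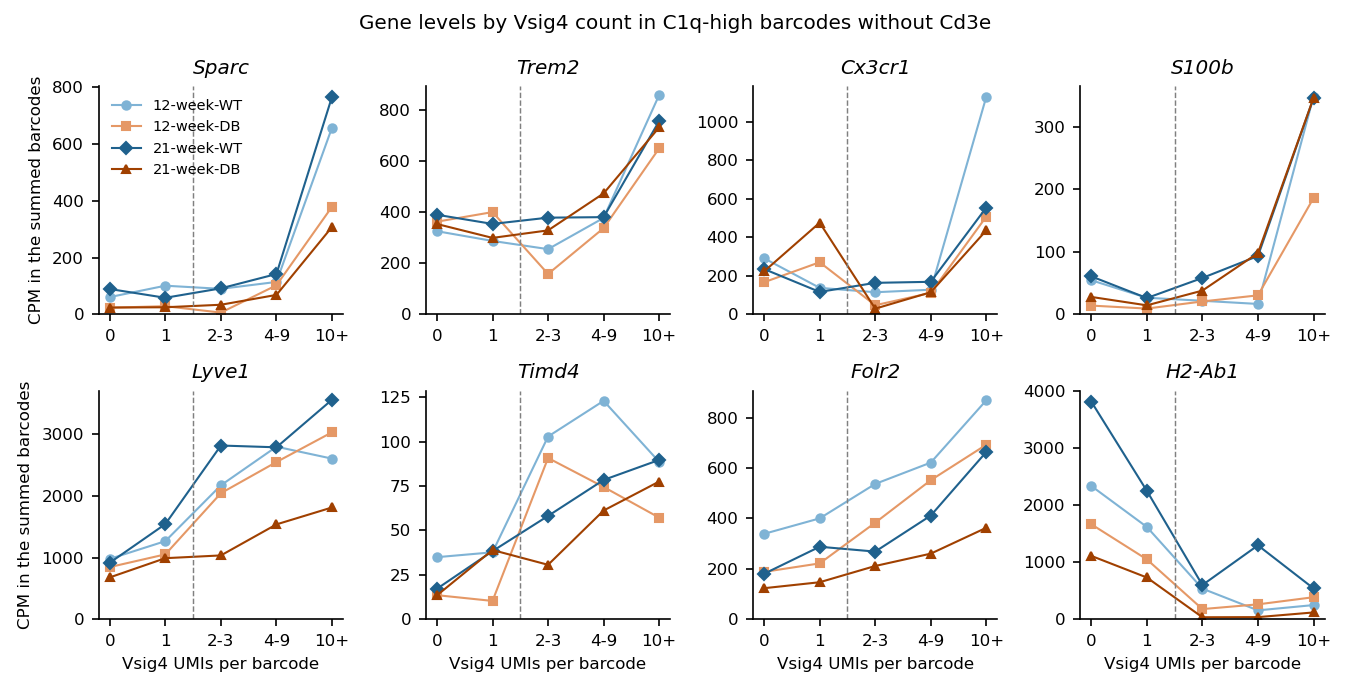
CPM of 8 genes in C1q-high barcodes without Cd3e, summed by their Vsig4 UMIs (0, 1, 2 to 3, 4 to 9, 10 or more), 1 line per library. The dashed line is the threshold of the rule. Sparc, Trem2, Cx3cr1 and S100b are highest at 10 or more Vsig4 UMIs in every library, except Cx3cr1 in 21-week-DB, which is highest at 1. Lyve1 and Folr2 are higher and H2-Ab1 is lower at 10 or more than at 0 in every library.

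At the threshold itself, Lyve1 moved from 1266, 1051, 1543 and 989.2 CPM at 1 Vsig4 UMI to 2173, 2045, 2819 and 1034 CPM at 2 to 3, while Sparc was at 100.6, 28.4, 58.0 and 24.6 CPM and then 89.6, 5.85, 91.3 and 33.5 CPM. Cells just inside thus differed from those just outside in Lyve1, except in 21-week-DB, and not steadily in Sparc.

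A split by Sparc gave a similar picture. Sparc+ cells (at least 1 UMI) numbered 142, 61, 254 and 192. Of 6118 genes compared, 27 (0.441%) were at least 2-fold higher in them in all 4 libraries and 19 (0.311%) at least 2-fold lower. Spp1 led, at 3.05, 3.91, 2.78 and 3.88 log2 units, and Fn1, which encodes fibronectin, Slc7a2, Smad7 and Pcolce2 were also higher. The lower genes included Ednrb, Cd93, the chemokines Pf4, Ccl7 and Ccl24, and Fxyd2. The 17 genes that were higher in both Sparc+ and Vsig4-rich cells made up 62.96% of the first list and 53.12% of the second. Both splits used the same cells.

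Vsig4+ macrophages were next set beside Lyve1+ cells without Vsig4, since most of them were Lyve1+. C1q-high barcodes with 2 or more Lyve1 UMIs and no Vsig4 or Cd3e UMI numbered 626, 584, 412 and 380. Against them, 20 of 6183 genes (0.323%) were at least 2-fold higher in Vsig4+ macrophages in all 4 libraries and 6 (0.097%) at least 2-fold lower. The higher genes were led by Pcolce2, with log2 ratios from 1.98 to 4.10, then Olfml3, Sparc, Sox4 and Ch25h, and also held Mxra8, Ctsd, S100b and Ltc4s. Of the 49 genes higher against all other C1q-high barcodes, 18 were in this list. Of the 69 lower genes only 4 were lower here, and Lpl, with log2 ratios from -1.98 to -1.46, Cd93 and Adam8 were among the 6. Ccr2 and the MHC class II genes were not among these 6.

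The share of Vsig4+ macrophages depended on what it was measured against. They were 19.1% (exact binomial interval 17.3 to 21.1), 14.9% (13.3 to 16.7), 26.0% (23.9 to 28.3) and 32.4% (30.03 to 34.9) of C1q-high barcodes. By this measure the DB share was 0.781 of the WT share at 12 weeks (0.673 to 0.907) and 1.25 times the WT share at 21 weeks (1.11 to 1.39). From 12 to 21 weeks it rose 1.36 times in WT (1.20 to 1.55) and 2.17 times in DB (1.90 to 2.48). Of all kept barcodes they were 6.03%, 4.03%, 5.70% and 5.35%, which gave a DB to WT ratio of 0.668 at 12 weeks (0.570 to 0.783) and 0.940 at 21 weeks (0.826 to 1.07), whose interval includes 1. C1q-high barcodes fell from 31.6% and 27.0% of kept barcodes at 12 weeks to 21.9% and 16.5% at 21 weeks, so their fall enters the first measure. The sort and digestion also set both denominators. At 12 weeks both measures gave the lower share in DB.

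**Figure D4:**
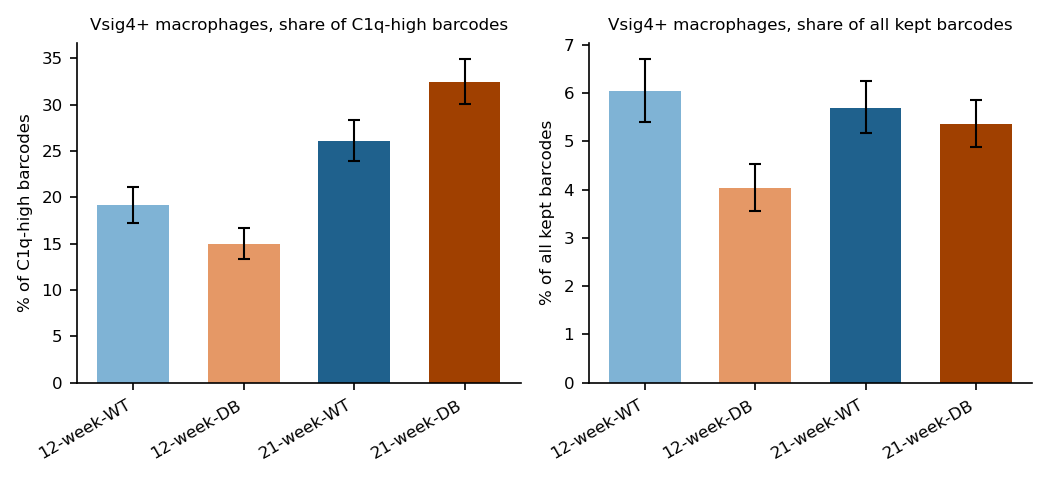
Vsig4+ macrophages as a percent of C1q-high barcodes (left) and of all kept barcodes (right) in each library, with exact 95% binomial intervals. Against C1q-high barcodes the share is highest in 21-week-DB at 32.4%, while against all kept barcodes the 12-week-WT, 21-week-WT and 21-week-DB shares lie between 5.35% and 6.03%.

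Within Vsig4+ macrophages, more genes differed between DB and WT at 21 weeks than at 12 weeks. At 12 weeks 22 of 6299 genes (0.349%) were at least 2-fold higher in DB and 59 (0.937%) at least 2-fold lower. At 21 weeks 108 of 5927 genes (1.82%) were higher and 121 (2.04%) lower. The difference between the ages was not tested, and each contrast compares 1 library with 1 library. Other C1q-high barcodes gave 12 higher and 78 lower genes at 12 weeks, and 121 and 111 at 21 weeks.

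The largest changes are given among genes with 100 CPM or more in the higher library and 50 UMIs in the pair. Among the 10 largest rises in DB at 12 weeks, Fxyd2, a regulator of the sodium pump, went from 826.9 to 2933 CPM and the chemokine Ccl6 from 263.2 to 835.8 CPM, with log2 ratios of 1.83 and 1.67, against 1.93 and 1.26 in the other barcodes. Cd163, the haemoglobin scavenger receptor, stood at 436.7 and 942.3 CPM (log2 1.11), against a log2 ratio of 0.17 in the others, and Lifr at 85.8 and 187.9 CPM (log2 1.13) against -0.26. Pla2g7 and Clec4d were 2-fold or more higher as well, and Gprc5b just reached 2-fold. Cdk2ap2 and Gcnt1 were near or below their T-cell-like level.

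Within this limit Spp1 showed the largest fall at 12 weeks, from 197.9 to 35.5 CPM (log2 -2.47, interval -2.78 to -2.19), and the chemokine Ccl3 went from 184.6 to 49.3 CPM. Below the limit, Ighm, an immunoglobulin heavy chain gene, went further, from 83.0 to 12.25 CPM (log2 -2.74), at levels below those of T-cell-like barcodes. Fn1 stood at 3147 CPM in WT and 1289 CPM in DB (log2 -1.29), with no such difference in other C1q-high barcodes (log2 -0.04). Vcan, the proteoglycan versican, was lower by a log2 ratio of -1.49, against -0.26 in the others. The interferon response genes Ifi27l2a, from 875.7 to 345 CPM, Ifit1, Irf7 and Oasl2 were at least 2-fold lower in DB, and in the other barcodes too. Oasl2 in 12-week-DB, at 10.7 CPM, lay below its T-cell-like level of 18.5 CPM. Olr1, Tcim, Egr1, Mcpt2 and Arsb were also among the 10 largest falls, Mcpt2 at a level below the T-cell-like one in 12-week-DB. The early response and heat shock list had 4 of 12 lower, of which Hspa1a and Hspa1b lay below their T-cell-like level in 12-week-WT, and the lining genes Cx3cr1 and Axl were lower by log2 ratios of -1.16 and -1.24.

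At 21 weeks Retnla (chr16:48842551-48844461, plus strand), a secreted product of alternatively activated macrophages, fell most, from 3737 to 28.4 CPM (log2 -7.03, interval -7.28 to -6.80). A Retnla UMI was found in 53.6% of the 21-week-WT cells but in 6.65% in 21-week-DB, and in 19.4% and 0.123% of T-cell-like barcodes. Its level at 12 weeks was 662.9 CPM in WT and 753.1 CPM in DB, so 21-week-DB stood apart from the other 3 libraries. Other C1q-high barcodes showed it as well, with 2519 and 20.9 CPM at 21 weeks. Rnase2a, an eosinophil-type ribonuclease, fell from 131.2 to 1.36 CPM on 7 UMIs in DB. Fn1 went from 3755 to 754.1 CPM, Gatm, the first enzyme of creatine synthesis, from 203.8 to 40.7 CPM and Mamdc2 from 162.1 to 35.0 CPM. Fn1, Gatm and Mamdc2 also fell in the other C1q-high barcodes, with log2 ratios of -2.01, -1.86 and -1.6. The remaining 5 of the 10 largest falls were MHC class II genes. H2-Aa, Cd74, H2-Eb1 and H2-Ab1 lay at or below their T-cell-like CPM in 21-week-WT, the background described above. H2-DMa, which went from 109.1 to 16.35 CPM, lay above its T-cell-like CPM in 21-week-WT.

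The matrix list was lower in 21-week-DB, with 5 of 6 genes at least 2-fold down: Sparc, Fn1, Tgfbi, Mmp14 and F11r. Sparc went from 605.8 to 211.5 CPM (log2 -1.52), and from 100.1 to 25.9 CPM in the other C1q-high barcodes. Slc7a2 went from 2273 to 658.5 CPM (log2 -1.79), and from 603.9 to 161.1 CPM in the other C1q-high barcodes. Folr2 went from 591.5 to 317.2 CPM (log2 -0.90), short of 2-fold. Lyve1 went from 3370 to 1640 CPM (log2 -1.04), against a log2 ratio of -0.54 in the others, while Trem2 stood at 662.8 and 614.8 CPM and Vsig4 at 1903 and 1752 CPM. Of the 5 proposed markers, Sparc and Slc7a2 were thus at least 2-fold lower in DB at this age, while Folr2, Trem2 and Vsig4 were not.

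Some lipid, metal-binding and inflammatory genes were higher in 21-week-DB. Apoe, the lipid-carrying apolipoprotein E, went from 3050 to 16606 CPM (log2 2.45, interval 2.42 to 2.47), and from 2241 to 8233 CPM in the other C1q-high barcodes. In the lipid list 5 of 14 genes were higher, Apoe, Apoc2, Fabp4, Lgals3 and Plin2, and 2 lower, Lpl and the cholesterol exporter Abca1. Pla2g7, a lipoprotein-associated phospholipase, showed the largest rise within the limit above, from 49.6 to 391.5 CPM (log2 2.98), while Apoc2 and Fabp4, below it, rose by log2 ratios of 3.19 and 3.15, and Hpgd, which degrades prostaglandins, went from 39.9 to 187 CPM. Of 7 metallothionein and glucocorticoid response genes, 4 were higher: Mt1, from 293.6 to 1574 CPM, Mt2, Fkbp5 and Hpgd. Fkbp5 lay below its T-cell-like level in both libraries. Hmox1, the haem-degrading enzyme, went from 153.2 to 756 CPM, and Ctsk, cathepsin K, from 72.8 to 424.6 CPM. Mt1, Mt2, Hmox1 and Ctsk rose in the other barcodes by log2 ratios of 2.72, 3, 2.26 and 2.18. Clec4d and Igsf6 were also among the 10 largest rises.

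Of 11 inflammatory genes, 6 were at least 2-fold higher in 21-week-DB: Tnf, Ccl3, Ccl4, Cxcl1, Cxcl2 and Nfkbia. Ccl4, a chemokine for monocytes and T cells, went from 173.1 to 693.4 CPM (log2 2.00), against a log2 ratio of 0.49 in other C1q-high barcodes. Cxcl2 went from 372.5 to 1743 CPM (log2 2.23), against 1.12. Tnf went from 139.3 to 408.3 CPM, and T-cell-like barcodes held 226.3 and 169.9 CPM. Nfkbia lay below its T-cell-like level in both libraries. For all 6 genes 21-week-DB was the highest of the 4 libraries, and the difference in response between the populations was not tested.

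**Figure D5:**
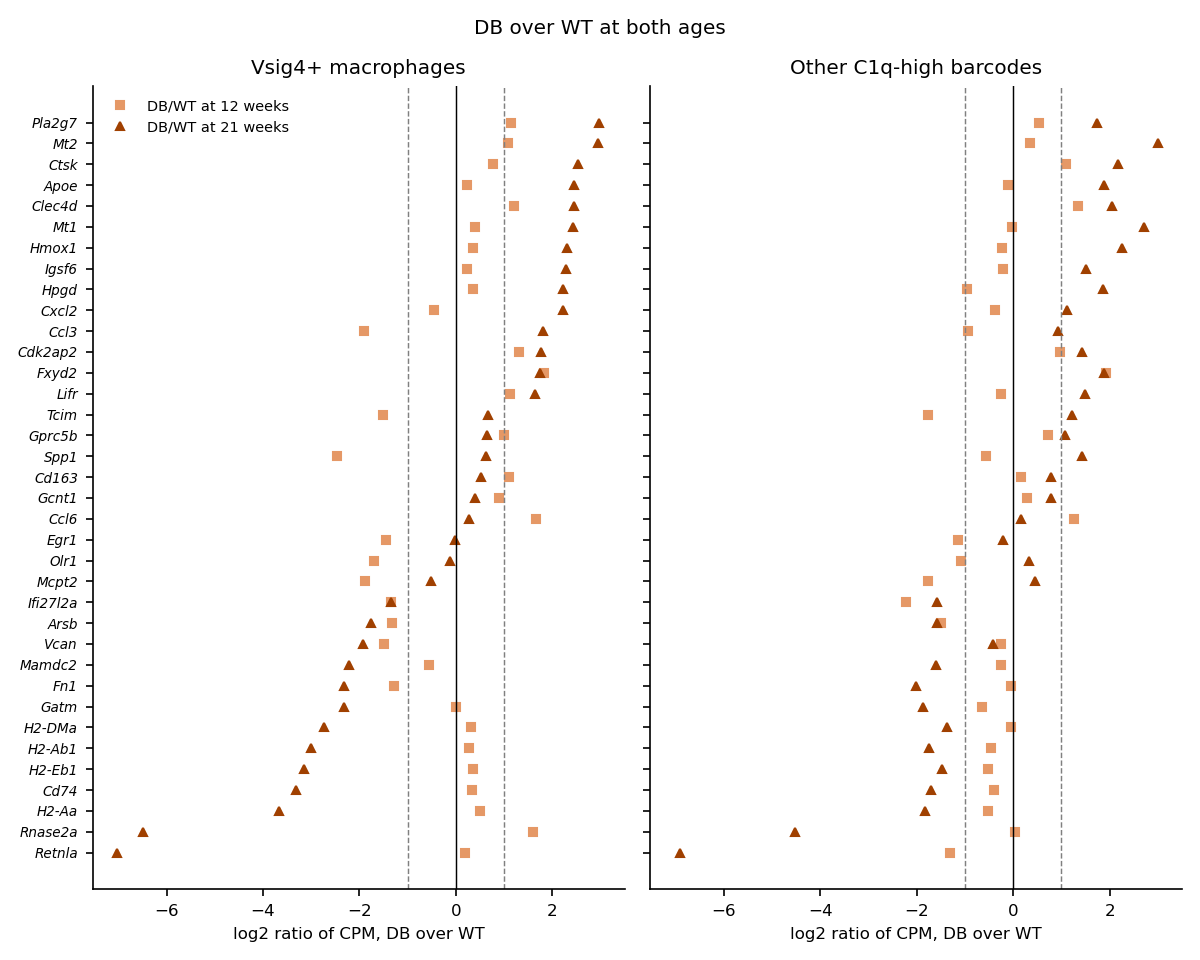
Log2 ratio of CPM in DB over WT at 12 weeks (squares) and 21 weeks (triangles) for genes described in the text from the 10 largest rises and falls at each age, in Vsig4+ macrophages (left) and other C1q-high barcodes (right), ordered by the 21-week ratio. Dashed lines mark 2-fold. Retnla and Rnase2a are far below 0 at 21 weeks in both populations.

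These contrasts were repeated in cells with 2 to 9 and with 10 or more Vsig4 UMIs. The genes were ranked in these same cells, so agreement was largely fixed in advance and is no independent check. At 21 weeks all 10 largest rises and all 10 largest falls were at least 2-fold in both sets. At 12 weeks 6 of 10 rises and 5 of 10 falls were at least 2-fold in the Vsig4-poor cells, against 8 and 10 in the Vsig4-rich cells. Mcpt2 turned, at 55.1 and 69.6 CPM in the Vsig4-poor cells of WT and DB, while the other 9 falls kept their direction. Fn1 was among those short of 2-fold in the Vsig4-poor cells, at 924.4 and 609.8 CPM.

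With age, the median gene shifted by a log2 ratio of -0.11 in WT and -0.18 in DB. The counts and values below are not corrected for this shift. In WT, 30 of 6110 genes (0.491%) were at least 2-fold higher at 21 than at 12 weeks and 44 (0.72%) at least 2-fold lower. Rnase2a, Retnla and Slc7a2 were among the 5 largest rises, Slc7a2 from 514.9 to 2273 CPM, with Il1b at its T-cell-like level. The largest falls were in Ednrb, from 152.7 to 34.5 CPM, Ccl8, Lpl, Spp1 and Tcim.

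In DB, 106 of 6133 genes (1.73%) were at least 2-fold higher at 21 weeks and 181 (2.95%) at least 2-fold lower. All 11 inflammatory genes compared were higher, Nfkbia and Nfkbiz at levels below those of T-cell-like barcodes in 21-week-DB, with Cxcl1 from 18.9 to 306.3 CPM, Cxcl2 from 118.1 to 1743 CPM and Ccl3 from 49.3 to 507.1 CPM. The small heat shock protein Hspb1 went from 29.5 to 412.9 CPM, and 7 of 12 early response and heat shock genes were higher, Fos, Jun, Junb, Atf3, Ier2, Hspa1a and Hspa1b, which dissociation of tissue also induces. Of these 7 genes only Jun and Atf3 lay above their T-cell-like level in 21-week-DB. For Fos, Junb, Ier2, Hspa1a and Hspa1b the T-cell-like level itself changed with age in DB by log2 ratios of -0.07, -0.37, 0.22, 0.53 and -0.08. Whether these 5 rises were changes of the cells was not tested, and they are not read as such. The part of handling in these values was not tested. Of 10 interstitial and perivascular genes 5 were lower, Mrc1, Stab1, Gas6, Cbr2 and Retnla, and Ccl8 went from 188.2 to 8.76 CPM. Ednrb and H2-Aa were the other large falls, with Gm15564 at its T-cell-like level.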

How the data were processed

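The authors deposited raw UMI counts per gene and barcode, made with Cell Ranger against mm10, as 1 matrix of 32285 genes per library. The matrices held 47851794 and 57025899 UMIs for WT and DB at 12 weeks and 69626521 and 54989592 at 21 weeks. No normalization, ambient RNA removal or doublet removal was applied. Barcodes were kept and chosen as stated in the report. The members, marker lists and gene lists were chosen with earlier results of these data known, so no list is independent support.

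Counts were summed over the Vsig4+ and the other C1q-high barcodes of each library (3890427, 3182687, 5442222 and 5138646 UMIs in Vsig4+ macrophages) and scaled to CPM. Log2 ratios carry a prior count of 0.5. Between populations a gene was called when it was at least 2-fold different in 1 direction in all 4 libraries, with a mean of at least 20 CPM. Between conditions it was called at 2-fold, with at least 20 CPM over the 2 sums. Genes of the rule were left out. Intervals are Clopper-Pearson for shares, exact Poisson for CPM, conditional binomial for CPM ratios and log-normal approximations for ratios of shares, at 95%. PCR duplicates were collapsed by UMI, and the intervals do not cover differences between mice.

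Genes named are the rule genes and markers, the called members of the fixed lists, the 15 highest and 10 lowest between populations by their smallest log2 ratio in 1 direction, and the 10 largest rises and falls in DB at each age (5 with age in each genotype) where the higher library had 100 CPM or more and the pair 50 UMIs. Genes named from the splits by Vsig4 and Sparc and from the Lyve1 comparison were chosen after their values were seen. Scrublet in scanpy 1.11.5 marked the highest doublet scores at a rate that grew with the number of barcodes, from 4.22% to 6.97%. TMM factors came from edgeR 4.0.16 in R 4.3.3. Other steps used Python 3.11.15 with numpy 2.4.6, pandas 2.3.3 and scipy 1.17.1. The call rule was tested on simulated counts. Coordinates are from GENCODE vM21 on GRCm38. Alternatives were other Vsig4, C1q, gene, mitochondrial and CPM thresholds, doublets or shared barcodes left out, thinning, a depth band, TMM scaling, other denominators and each library left out. Results for some genes are left out of the text.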

Additional observations from a re-analysis of the deposited data

Results flagged for a closer look

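Among the shares and the genes named above with at least 20 CPM at both ages, 3 effects of DB against WT pointed opposite ways. The genes did so by at least 2-fold each way, and the level is taken over the 2 sums. Mmp12, below that level, also turned, from 6.17 to 32.4 CPM at 12 weeks and from 3.68 to 1.75 CPM at 21 weeks. The share of C1q-high barcodes that were Vsig4+ was 0.781 of the WT share in DB at 12 weeks and 1.25 times the WT share at 21 weeks. In Vsig4+ macrophages, Ccl3 had a log2 ratio of DB over WT of -1.90 at 12 weeks and 1.81 at 21 weeks. For Rnase2a it was 1.61 and then -6.49, on 45, 113, 714 and 7 UMIs in the 4 libraries. With 1 library per condition these differences between ages were not tested.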

How the results depend on the processing

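With all kept barcodes as the denominator, 2 share ratios reversed, to 0.940 for DB over WT at 21 weeks and 0.944 for 21 over 12 weeks in WT, and the others moved to 0.668 (DB over WT at 12 weeks) and 1.33 (21 over 12 weeks in DB). Thinned to 4000 UMIs, the ratio of 21 to 12 weeks in WT was 1.59. A threshold of 5 CPM tests more genes and gave 98 higher and 144 lower genes in Vsig4+ against other C1q-high barcodes, 116 and 151 in DB at 12 weeks and 301 and 254 at 21 weeks. With no threshold these were 428 and 321, 1854 and 2124, and 2789 and 1934. In cells with 10 or more Vsig4 UMIs, an alternative chosen after seeing the data, 41 genes were higher in DB at 12 weeks in place of 22, and the cause was not tested. All other values run kept their direction, and counts stayed within 1.5 times. These were 31 of 36 share ratios, 26 of 30 and 35 of 44 gene counts, and 52 of 52 marker ratios. Leaving out each library gave 44 to 67 higher and 69 to 84 lower genes, and mean log2 ratios of 0.73 to 0.92 for Trem2, 2.83 to 3.11 for Sparc, 1.64 to 1.95 for Slc7a2 and 1.38 to 1.55 for Folr2. No paired analysis was possible because each condition had 1 library. Depth limits low genes most in 12-week-DB, whose Vsig4+ macrophages held 3182687 UMIs.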
